A study of Mus musculus with 8 samples.

Results

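The chemokine ligands and receptors are the secreted proteins that guide migrating cells and the membrane proteins that read them. They were found in the expression table by gene symbol (Ccl, Cxcl, Xcl and Cx3cl1 for ligands, Ccr, Cxcr, Ackr, Ccrl and Darc for receptors), and the rule itself uses no measured value. The rule found 27 rows with 26 distinct symbols among 15275 genes: 15 ligands (8 CC ligands, 6 CXC ligands and Cx3cl1), 7 G protein-coupled receptors and 5 rows of atypical receptors, 2 of which carry the symbol Ccrl1. Inner ears of newborn ICR mice (an outbred strain, with no transgene or treatment named) at postnatal day 0 were dissociated, and cells were sorted after staining for CD326 (the epithelial adhesion molecule), CD49f (an integrin subunit) and CD34 (a surface protein of endothelial and progenitor cells). RNA was sequenced from 4 sorted populations, labelled epithelial, mesenchyme, neurons and vascular endothelium, each from the cochlea (the hearing organ) and the vestibule (the balance organ). The result was 8 libraries, a single one per population and organ. The paper's results name postnatal day 2 for the sorted cochlear populations, while its methods and the labels give day 0, which is used here. The sources do not say how many mice entered a library or whether mice were pooled.

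Chemokines fall into families named for the spacing of their first cysteines (CC, CXC and CX3C). A typical chemokine receptor signals through inhibitory G proteins to the cytoskeleton and to adhesion molecules, while an atypical receptor binds chemokines without that coupling and removes, moves or holds them. Some ligands, above all Cxcl12, act in development and homeostasis. Others, such as Cxcl1, Cxcl2, Cxcl10, Ccl2 and Ccl3, are made on inflammatory stimulation and draw neutrophils, T cells or monocytes. In the inner ear, chemokines are best known for calling leukocytes into the tissue after noise, ototoxic drugs or infection.

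The deposited values are a normalised expression signal with a floor of 20 (13.5% of genes sat at the floor in each library), and the sorted list of values was the same in all 8 libraries. Sequencing depth is therefore unknown here, no counting error can be given, and a value at 20 means only that the gene was listed at the floor. Whether the values are scaled to transcript length is not known, so levels are compared between libraries and not between genes. The labels were checked against marker genes. The epithelial list holds Epcam (CD326) and the vascular list Cd34, which the cells were stained for, so these genes are no independent check. The summed signal of 16 epithelial markers was 249602.8 and 337080.2 in the epithelial libraries and at most 20509.4 elsewhere. That of 15 vascular endothelial markers was 323498.5 and 168894.7 in the vascular endothelial libraries and at most 16681.3 elsewhere, and that of 12 mesenchyme markers was 399519.2 and 490728.5 in the mesenchyme libraries. The libraries labelled neurons fitted their label in part. Of 13 neuronal markers, 7 were highest in the cochlear one (Tubb3 468.8, against at most 152 elsewhere, and Mapt 954.6, against at most 330.6) but 1, Gap43, in the vestibular one, and only Gap43 was called higher. Their summed signal of these markers was 7147.4 in the cochlea, within the range of the epithelial libraries (5307.1 to 7847.4). In the vestibule it was 2431.5, within the range of the mesenchyme libraries (1927.9 to 5437.7). By contrast, 10 markers of glia and Schwann cells summed to 168070.3 and 156010.8 in the libraries labelled neurons, against at most 19187.0 elsewhere. These libraries also held 206805.7 and 143933.6 of mesenchyme marker signal, most of it from collagen genes (Col3a1 at 147259.9 and 64473.6, Col1a2 at 42828.1 and 33585.6). Pou3f4 was at 190.1 and 580.0 there, against 5381.0 and 5579.6 in mesenchyme. Prrx1 reached 2153.8 in the vestibular one, against 2261.3 and 3329.5 in mesenchyme. Pericyte and smooth muscle markers summed to 162061.4 in the vestibular and 14761.5 in the cochlear one, of which Rgs5 alone gave 147259.9 and 6597.8. Of these 9 markers, 7 were higher in the vestibular and 2 in the cochlear one. The vestibular neuron-labelled and vascular libraries held more signal of some other populations than the cochlear ones, with epithelial markers at 15891.7 against 1574.0 in the neuron-labelled and 15790.8 against 1448.9 in the vascular libraries, vascular markers at 16681.3 against 2554.2 in the neuron-labelled libraries and mesenchyme markers at 33488.0 against 4180.9 in vascular endothelium. Mesenchyme carried erythroid markers (49305.2 and 89171.0, against at most 2472.1 elsewhere, with 3 of 5 called higher) and melanocyte markers (18436.5 and 11210.6, against 993.4 to 11003.9 elsewhere). The libraries labelled neurons are called neuron-labelled here.

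Chemokine genes were read in every population, but unevenly. Between 20 and 21 of 27 rows were above the floor in the vestibular mesenchyme, both neuron-labelled and the cochlear vascular endothelial libraries, 16 in the vestibular vascular endothelium, 14 in the cochlear mesenchyme and 11 in each epithelial library. Only 5 rows were above the floor in all 8 libraries, namely Cxcl12, Cxcl1, Cx3cl1, Cxcr4 and Cxcr7, and 10 rows, of which 7 were among the 12 receptor rows, never reached a signal of 100. Of all 27 rows, 11 (40.7%) had their highest mean in the neuron-labelled libraries, 7 (25.9%) in vascular endothelium, 6 (22.2%) in mesenchyme and 3 (11.1%) in epithelium. The same shares over all genes above the floor somewhere were 21.4%, 29.1%, 23.5% and 25.9%. With only genes of mean signal of at least 100 kept, 1, 4, 2 and 2 rows were left in the neuron-labelled, vascular, mesenchyme and epithelial classes, so most rows of the neuron-labelled class had low signals.

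**Figure D1:**
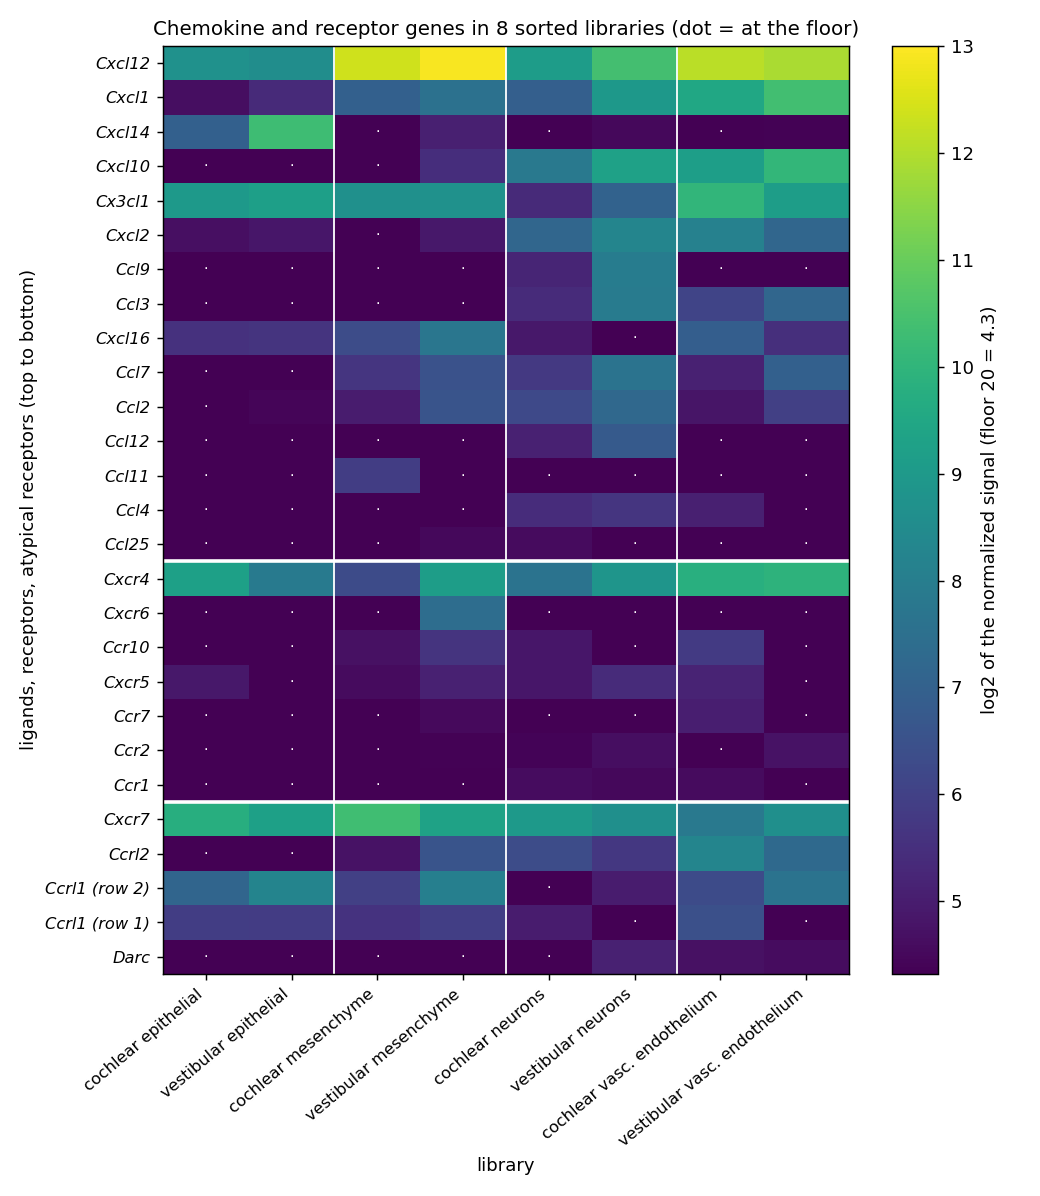
Heat map of the log2 signal of all 27 chemokine ligand and receptor rows in the 8 libraries, 1 column per cell type and organ, with ligands, receptors and atypical receptors grouped and dots where a gene sat at the floor of 20. The 2 epithelial columns hold 16 floor values each, the most of any library.

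One additive model set each cell type against the average of the remaining 3, with terms for cell type and organ (limma on log2(signal + 1), two-sided, Benjamini-Hochberg adjustment over all 15275 genes, threshold 0.05, 3 residual degrees of freedom). The cochlear and vestibular libraries of a cell type stand in that model for 2 samples of it. A p-value is thus set against the spread between libraries left after the average organ difference is removed, not the spread between animals. Fold changes are on the log2(signal + 1) scale and understate changes of genes near the floor. Over all genes the model called 13.9% in epithelium, 11.1% in vascular endothelium, 3.36% in the neuron-labelled libraries and 3.33% in mesenchyme, in either direction. Of the 27 chemokine rows it called 5, 2, 1 and 2.

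Separation of the single values was read beside the model. Both epithelial libraries were below all 6 others for 5 rows (Ccl2, Ccl7, Ccrl2, Cxcl1 and Cxcl12) and above them for 1 (Cxcl14), as were 11.3% and 12.4% of all genes. Both neuron-labelled libraries were below all others for 3 rows (Cx3cl1, Cxcl16 and Ccrl1) and above for 3 (Ccl4, Ccl9 and Ccl12), against 3.22% and 6.4%. Both vascular libraries were above all others for 3 rows (Cxcl1, Cxcr4 and Ccrl2) and below for 0, against 10.2% and 7.76%. For mesenchyme this held for 1 row above (Cxcl12) and 0 below, against 7.63% and 4.02%.

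Cxcl12 and its 2 receptors were above the floor in all 8 libraries, and Cxcl12 was called in mesenchyme and in epithelium. Cxcl12 (chr6:117168535-117181367 in GRCm38), the ligand that retains and guides blood progenitors, endothelial cells and neurons, had a signal of 5316 and 7806.3 in cochlear and vestibular mesenchyme and 4396.5 and 3788.6 in vascular endothelium. It was at 554.3 and 1363 in the neuron-labelled libraries and at 418.8 and 385.1 in epithelium. The 4 mesenchyme and vascular values were above the other 4, and the epithelial values were the lowest. Cxcl12 was higher in mesenchyme by 2.52 on the log2 scale (SE 0.35, limma adjusted p = 0.0441), and lower in epithelium (-2.82, SE 0.35, adjusted p = 0.0164). In vascular endothelium its log2 difference of 1.64 (SE 0.35) did not pass (adjusted p = 0.0545).

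Cxcr4 (chr1:128588199-128592293), the signalling receptor of Cxcl12, had a signal of 884.1 and 977.4 in vascular endothelium, above every other library. The other libraries spread widely, with 616.5 and 238.3 in cochlear and vestibular epithelium, 79 and 565.3 in mesenchyme and 195.5 and 461.6 in the neuron-labelled libraries. The vascular difference was 1.68 on the log2 scale (SE 0.84, limma adjusted p = 0.264) and no comparison called Cxcr4. Cxcr7 (chr1:90203980-90216751, named Ackr3 in GENCODE), the atypical receptor that takes up Cxcl12, ran the other way in vascular endothelium, with 230.1 and 398.4. It was at 874 and 617.3 in epithelium, 1292.6 and 634.5 in mesenchyme and 510.1 and 396.5 in the neuron-labelled libraries. The vestibular neuron-labelled and vestibular vascular values lay side by side, and the vascular difference (-1.14, SE 0.39) did not pass (adjusted p = 0.137). Across the 4 populations the ligand differed by more than the spread between libraries, and for its 2 receptors no such difference was detected.

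Vascular endothelium carried the highest signal of the inducible CXC ligands Cxcl1 and Cxcl10. Of 27 rows, 2 were called higher there and none lower. At an unadjusted p under 0.05 there were 7 rows higher and 1 lower, beside 2137 and 2450 of all 15275 genes. With adjustment the background over all genes was 5.96% higher and 5.14% lower. The share of chemokine genes called higher (2 of 27) was thus near that of all genes. That count was 4 with a mean signal of at least 100, 5 with median-of-ratios scaling, 5 without the organ term and 0 to 2 with 1 library left out (0 without either mesenchyme, either vascular or the cochlear neuron-labelled library). Cxcl1 (chr5:90891241-90893115), the neutrophil attractant also called KC, had a signal of 714.3 and 1320.6 in cochlear and vestibular vascular endothelium. It was at 123.5 and 492.9 in the neuron-labelled libraries, 125.3 and 186.6 in mesenchyme and 25.1 and 40.6 in epithelium. Neither the vascular nor the epithelial values overlapped those of any other library. The gene was higher in vascular endothelium by 3.17 (SE 0.40, limma adjusted p = 0.0215) and lower in epithelium (-3.34, SE 0.40, adjusted p = 0.0154).

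Cxcl10 (chr5:92346638-92348889), the interferon-induced ligand that draws activated T cells, was at 588.5 and 1076.6 in vascular endothelium and at 229.1 and 627.1 in the neuron-labelled libraries. It sat at the floor in both epithelial libraries and in the cochlear mesenchyme, and at 44.4 in the vestibular mesenchyme. The vascular and neuron-labelled ranges overlapped, and both lay above the rest. Cxcl10 was higher in vascular endothelium by 3.67 (SE 0.38, limma adjusted p = 0.0171) and lower in epithelium (-3.33, SE 0.38, adjusted p = 0.0146) and mesenchyme (-2.59, SE 0.38, adjusted p = 0.0463). In the neuron-labelled libraries its difference of 2.24 (SE 0.38) did not pass (adjusted p = 0.0591). The whole of Cxcl10 lies within Art3, an ADP-ribosyltransferase gene on the opposite strand, and no source says whether reads were assigned by strand. Art3 had 5265.6 and 3202.5 in the neuron-labelled libraries, 171.4 and 419.1 in vascular endothelium, 24.6 and 43 in mesenchyme and 39.6 and 85.9 in epithelium. Reads of the pair cannot be told apart on these files. Both genes were higher in the vascular and neuron-labelled libraries than in epithelium and mesenchyme. Cxcl10 had its highest value in vascular endothelium and Art3 in the neuron-labelled libraries. The part of Art3 in the Cxcl10 signal was not tested.

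Cxcl2 (chr5:90903871-90905938), a close relative and neighbour of Cxcl1 that also attracts neutrophils (the pair spans 14698 bases), was at 284 and 144 in vascular endothelium and 145.4 and 306.1 in the neuron-labelled libraries. It was between 20 and 29.6 in the 4 epithelial and mesenchyme libraries. No comparison called it, with a log2 difference of 1.93 in vascular endothelium (limma adjusted p = 0.0635) and 2.01 in the neuron-labelled libraries (adjusted p = 0.0966). Ccrl2, an atypical receptor that holds the attractant chemerin at the cell surface, had 308.9 and 155.8 in vascular endothelium, above every other library, 80.4 and 53.4 in the neuron-labelled libraries, 26.9 and 95.8 in mesenchyme and the floor value in epithelium. Its vascular difference of 2.40 (SE 0.60) did not pass (adjusted p = 0.0723). Cx3cl1 (chr8:94772009-94782427), the membrane-bound ligand fractalkine, had 1046.1 and 565 in vascular endothelium, 517.3 and 601.8 in epithelium, 412.8 and 416.4 in mesenchyme and 40.8 and 133.5 in the neuron-labelled libraries. The neuron-labelled values were below all others, but the difference (-2.91, SE 0.54) did not pass (adjusted p = 0.0698).

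Cxcl1, Cxcl2, Cxcl10 and Cxcl12 all had lower values in both epithelial than in both vascular libraries. Cxcl1 and Cxcl10 were highest in vascular endothelium, Cxcl12 in mesenchyme and Cxcl2 in the vestibular neuron-labelled library. The promoter windows of these genes are shown. Each runs 5′ to 3′ on the gene's own strand from 250 bases before to 50 after the start that RefSeq gives (GRCm38.p6), and capitals mark matches, on either strand, to the binding consensus of NF-kappaB, to the interferon-stimulated response element, to the AP-1 site (TGANTCA) or to the TATA box (TATAAA). The windows lie at chr5:90890995-90891294 (plus strand), chr5:90903649-90903948 (plus), chr5:92348840-92349139 (minus) and chr6:117168285-117168584 (plus).
Cxcl1: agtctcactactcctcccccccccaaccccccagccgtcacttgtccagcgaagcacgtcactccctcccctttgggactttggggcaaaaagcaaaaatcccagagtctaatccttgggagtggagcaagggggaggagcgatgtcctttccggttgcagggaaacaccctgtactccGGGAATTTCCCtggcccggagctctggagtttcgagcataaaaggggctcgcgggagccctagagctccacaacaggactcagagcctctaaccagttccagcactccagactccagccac
Cxcl2: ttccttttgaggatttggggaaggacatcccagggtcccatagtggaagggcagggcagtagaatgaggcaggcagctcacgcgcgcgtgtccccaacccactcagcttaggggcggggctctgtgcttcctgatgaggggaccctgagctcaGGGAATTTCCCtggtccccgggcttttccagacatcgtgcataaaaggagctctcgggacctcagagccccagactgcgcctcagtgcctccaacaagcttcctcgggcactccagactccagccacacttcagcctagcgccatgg
Cxcl10: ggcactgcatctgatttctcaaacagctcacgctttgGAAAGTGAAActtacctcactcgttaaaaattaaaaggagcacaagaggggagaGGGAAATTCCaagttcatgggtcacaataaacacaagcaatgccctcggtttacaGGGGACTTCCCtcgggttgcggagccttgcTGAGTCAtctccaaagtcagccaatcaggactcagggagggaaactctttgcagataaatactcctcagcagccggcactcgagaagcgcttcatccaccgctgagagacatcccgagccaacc
Cxcl12: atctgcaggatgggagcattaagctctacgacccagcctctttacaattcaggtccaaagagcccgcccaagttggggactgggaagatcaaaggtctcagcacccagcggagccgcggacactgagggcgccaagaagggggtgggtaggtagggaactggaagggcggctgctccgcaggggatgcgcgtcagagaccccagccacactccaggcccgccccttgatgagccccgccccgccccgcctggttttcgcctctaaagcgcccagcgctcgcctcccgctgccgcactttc
Cxcl1 and Cxcl2 carry the same match, GGGAATTTCC, beginning 71 and 97 bases before the start, each overlapped by a match on the opposite strand. Cxcl10 has GGGAAATTCC at 159 bases, GGGGACTTCC at 104 overlapped by GGGACTTCCC at 103, a response element at 213 and an AP-1 site at 74. No match to these motifs stands in the Cxcl12 window. Of the 26 symbols, 18 had a RefSeq promoter, in 21 windows, and 6 of the 21 windows held the NF-kappaB consensus (Ccl9, Ccr1, Ccrl2, Cxcl1, Cxcl10 and Cxcl2), against 8.46% of all 32851 windows. The response element stood in 2 member windows and 3.44% of all windows, the AP-1 site in 2 and 7.81%, and the TATA box in 7 and 13.62%. A match of letters is a description and does not show binding.

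**Figure D2:**
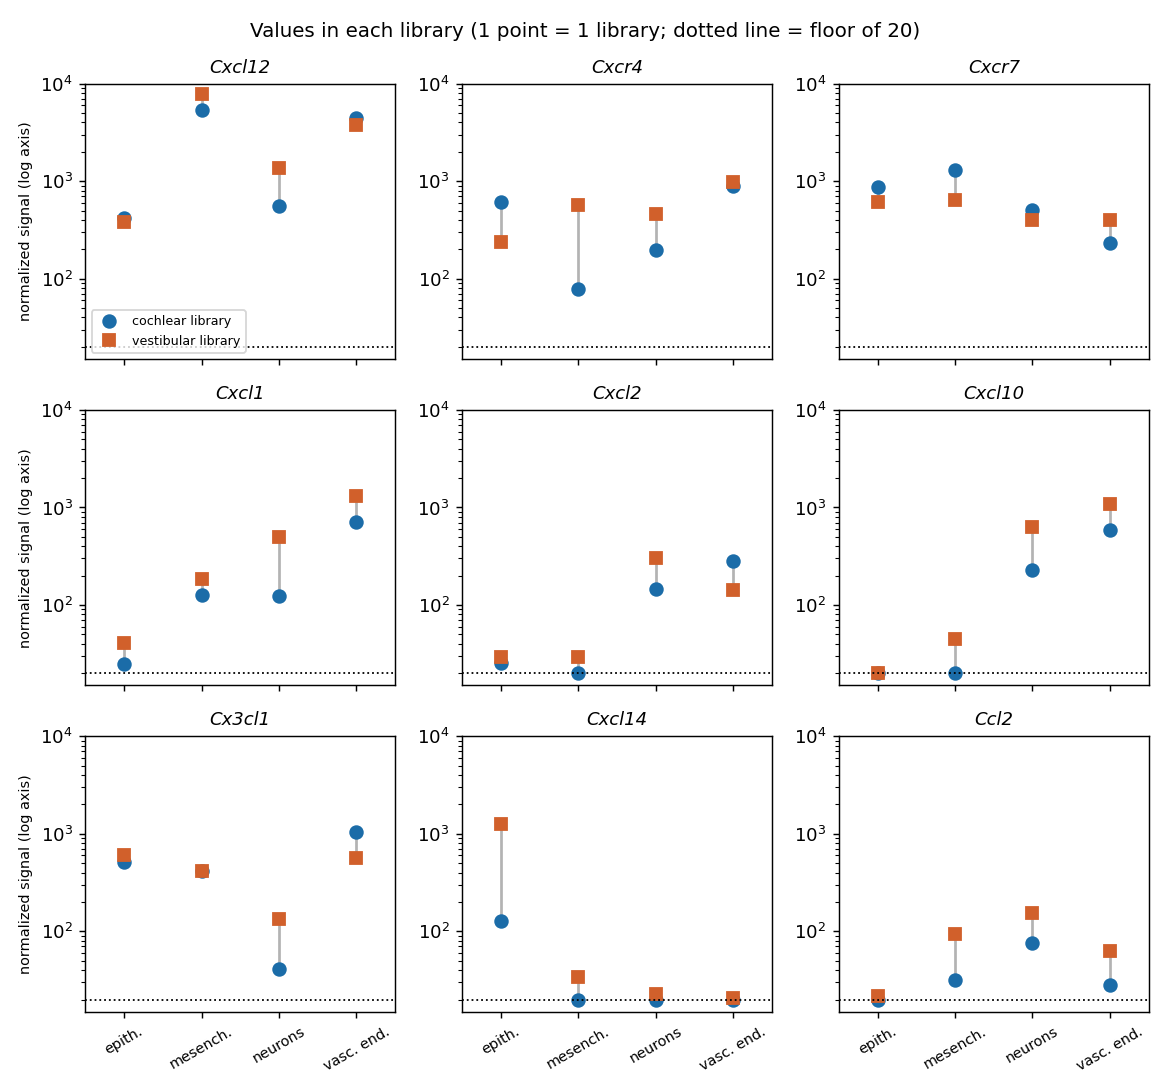
Signal in each of the 8 libraries, on a log10 axis, of 9 chemokine genes, with the cell types along the x axis, blue circles for cochlear and orange squares for vestibular libraries, a grey line joining the pair and a dotted line at the floor of 20. Cxcl12 was at 5316 and 7806.3 in mesenchyme and 418.8 and 385.1 in epithelium, and Cxcl1 and Cxcl10 had their highest values in vascular endothelium.

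The neuron-labelled libraries held the highest signal of most CC ligands, the family that draws monocytes and macrophages. Of 8 CC ligands, 6 had their highest value in the vestibular neuron-labelled library, and 7 of 8 were at the floor in both epithelial libraries. No row was called higher in the neuron-labelled libraries (limma, background 2.3%), while 8 were at an unadjusted p under 0.05, namely Ccl2, Ccl3, Ccl4, Ccl7, Ccl9, Ccl12, Cxcl2 and Cxcl10, as were 1547 of all 15275 genes. One row, Ccrl1, was called lower (background 1.07%), and 4 rows and 1588 of all genes were at an unadjusted p under 0.05 in that direction.

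Ccl2, the main monocyte attractant, had a signal of 75.9 and 154.4 in the cochlear and vestibular neuron-labelled libraries, 31.5 and 94.5 in mesenchyme, 28 and 62.4 in vascular endothelium and 20 and 21.5 in epithelium. The epithelial values were below all others, and Ccl2 was called lower there (-1.56, SE 0.32, limma adjusted p = 0.0443). Ccl7, a second monocyte attractant, reached 197.4 in the vestibular neuron-labelled library and 125.3 in the vestibular vascular endothelium. Ccl3, a macrophage inflammatory protein, was at 42.4 and 245.6 in the neuron-labelled and 69.1 and 146.6 in the vascular libraries, and at the floor in the other 4. Ccl9 (37.6 and 252.8) and Ccl12 (34.4 and 109.3) were above the floor in the neuron-labelled libraries only, and Ccl4 reached 50.3 there. How reads that fit several of these related genes were counted is not stated, and Ccl2 lies over Gm17268 on the opposite strand. The genes sit in 2 clusters on chromosome 11. In the cluster of Ccl2, Ccl7, Ccl11 and Ccl12 (chr11:82035571-82103400) 3 of 4 genes, and in that of Ccl9, Ccl3 and Ccl4 (chr11:83572919-83664683) 3 of 3, were highest in the vestibular neuron-labelled library.

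Macrophages also make CC ligands, so their markers were read beside them. The summed signal of 19 macrophage markers was 3581.8 and 4807.1 in the neuron-labelled libraries, 4385.9 and 2315.3 in vascular endothelium, 734.4 and 1217.6 in mesenchyme and 923 and 980.7 in epithelium. None of the 19 was at the floor in the neuron-labelled libraries, against 1 and 3 in the vascular, 11 and 6 in the mesenchyme and 7 and 11 in the epithelial libraries. The model called 4 higher in the neuron-labelled libraries and 2 in vascular endothelium, against 2.3% and 5.96% of all genes (limma). It called 2 lower in epithelium and 1 in mesenchyme, against 6.68% and 1.51%. At an unadjusted p under 0.05, 15 were higher in the neuron-labelled libraries and 4 in vascular endothelium, beside 1547 and 2137 of all genes. Their median log2 differences were 1.85 and 0.19. Single markers went both ways between the cochlear vascular and the cochlear neuron-labelled library (Laptm5, 1096.9 against 364, and Ptprc, 27.6 against 54.9). Between the neuron-labelled libraries, 13 of the 19 markers were higher in the vestibular one (Ptprc, 114.8 against 54.9, and Cd68, 551.3 against 131.1) and 6 in the cochlear one (Csf1r, 620.6 against 399.8, and C1qa, 215.5 against 116). Of 4 mast cell markers, 3 were higher in the vestibular neuron-labelled library (Cpa3, 187.6 against 42.4) and Hdc was at the floor in both. The part of macrophages or mast cells in these chemokine signals was not tested, and fewer cells of a type and less RNA per cell cannot be told apart in sorted bulk RNA. A list of 13 genes that respond to tissue dissociation summed to between 112376.6 in the vestibular vascular endothelium and 227806.1 in the vestibular epithelium. Of these genes, 1 was called lower in vascular endothelium and none was called in the other cell types (limma). At an unadjusted p under 0.05, 2 were higher and 1 lower in vascular endothelium. In epithelium and mesenchyme 1 each was higher, and in the neuron-labelled libraries 1 was lower. Between the vascular libraries 10 of the 13 were higher in the cochlear one and 3 in the vestibular one. Hspa1a and Hspa1b were at 10936.6 and 11975.4 in the cochlear and 653.5 and 644 in the vestibular one.

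Epithelium had the fewest chemokine genes above the floor. Of 27 rows, 15 were at the floor in both epithelial libraries, namely 7 CC ligands, Cxcl10 and 7 receptor rows. Of all 15275 genes, 1643 were. In the model 4 rows were called lower (Cxcl1, Cxcl10, Cxcl12 and Ccl2, given above) and 1 higher, against 6.68% and 7.27% of all genes. At an unadjusted p under 0.05, 8 rows were lower and 2 higher, beside 2343 and 2193 of all genes. The higher ones included the Ccrl1 row named Ackr4 in GENCODE (1.46, SE 0.36, limma adjusted p = 0.0661). The median log2 difference of the members was -0.35 in epithelium, beside -0.07 over all genes.

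The row called higher was Cxcl14 (chr13:56288643-56296551), a homeostatic ligand made by many epithelia. It had a signal of 127 in the cochlear and 1269 in the vestibular epithelium. In the other 6 libraries it was between 20 and 34.3. Cxcl14 was higher in epithelium by 4.10 (SE 0.72, limma adjusted p = 0.032), and its 2 epithelial values differed by 9.99 times.

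Ccrl1 (ENSMUSG00000079355, named Ackr4 in GENCODE), an atypical receptor that scavenges the homing ligands Ccl19, Ccl21 and Ccl25, had 141.3 and 301.3 in epithelium, 63 and 267.5 in mesenchyme, 78.3 and 196 in vascular endothelium and 20 and 31.9 in the neuron-labelled libraries. The neuron-labelled values were below all others, and the gene was called lower there (-2.52, SE 0.36, limma adjusted p = 0.0465). It lies entirely within Acad11, an acyl-CoA dehydrogenase gene on the opposite strand. Acad11 was also lowest in the neuron-labelled libraries, at 282.3 and 179.3 against 388.5 to 702.3 elsewhere, so reads of the pair cannot be told apart. The other row with that symbol (ENSMUSG00000041748, not found in the annotation used here) had its highest value, 86.5, in the cochlear vascular endothelium and was called in no comparison.

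In mesenchyme only Cxcl12 was called higher and only Cxcl10 lower, against 1.82% and 1.51% of all genes. The part of the erythroid and melanocyte signal given above in these values was not tested. Besides Cxcl12, Cxcr6 and Cxcl16 were highest in the vestibular mesenchyme library. Cxcr6, the receptor of Cxcl16 on T cell and innate lymphocyte subsets, was at 170.6 there and at the floor in the other 7 libraries. Its ligand Cxcl16, which is also a membrane-bound scavenger receptor, was at 81.9 and 213.3 in cochlear and vestibular mesenchyme, 119.9 and 44.8 in vascular endothelium, 47.6 and 49.3 in epithelium and 29.4 and 20 in the neuron-labelled libraries. Both rows share bases with a gene on the opposite strand. Cxcl16 shares 552 bases with Zmynd15, which was also highest in the vestibular mesenchyme (168.5, against at most 76 elsewhere). Cxcr6 shares 5286 bases with Fyco1, which was at 1953.4 in the vestibular mesenchyme and between 934.3 and 1467.6 elsewhere. Reads of the pairs cannot be told apart on these files. The B lymphocyte genes Cd79a (47.6), Cd79b (80.1) and Ms4a1 (27.8) were also highest in the vestibular mesenchyme, while Il7r, a gene of T cells and innate lymphocytes, was at the floor there. The part of lymphocytes in the Cxcr6 signal was not tested. Ccl11, the eosinophil attractant eotaxin, was at 60.3 in the cochlear mesenchyme and at the floor everywhere else.

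The remaining rows were low. Ccr10, the receptor of skin and mucosal homing ligands, reached 56.1 and Ccr7, the receptor that brings leukocytes to lymph nodes, reached 33.3, each in the cochlear vascular endothelium. Cxcr5, the B cell follicle receptor, reached 41.5 in the vestibular neuron-labelled library, and Darc, the Duffy antigen that binds many inflammatory chemokines, reached 35 there. Ccr1 (24.6), Ccr2 (26.9) and Ccl25 (23.9) were never far above the floor. Ccr1 and Ccr2, the receptors of Ccl3 and of Ccl2, were thus at or close to the floor in every library, where depth is unknown. Ccr10, Cxcr5 and Ccl25 overlap a gene on the opposite strand and Darc one on the same strand.

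**Figure D3:**
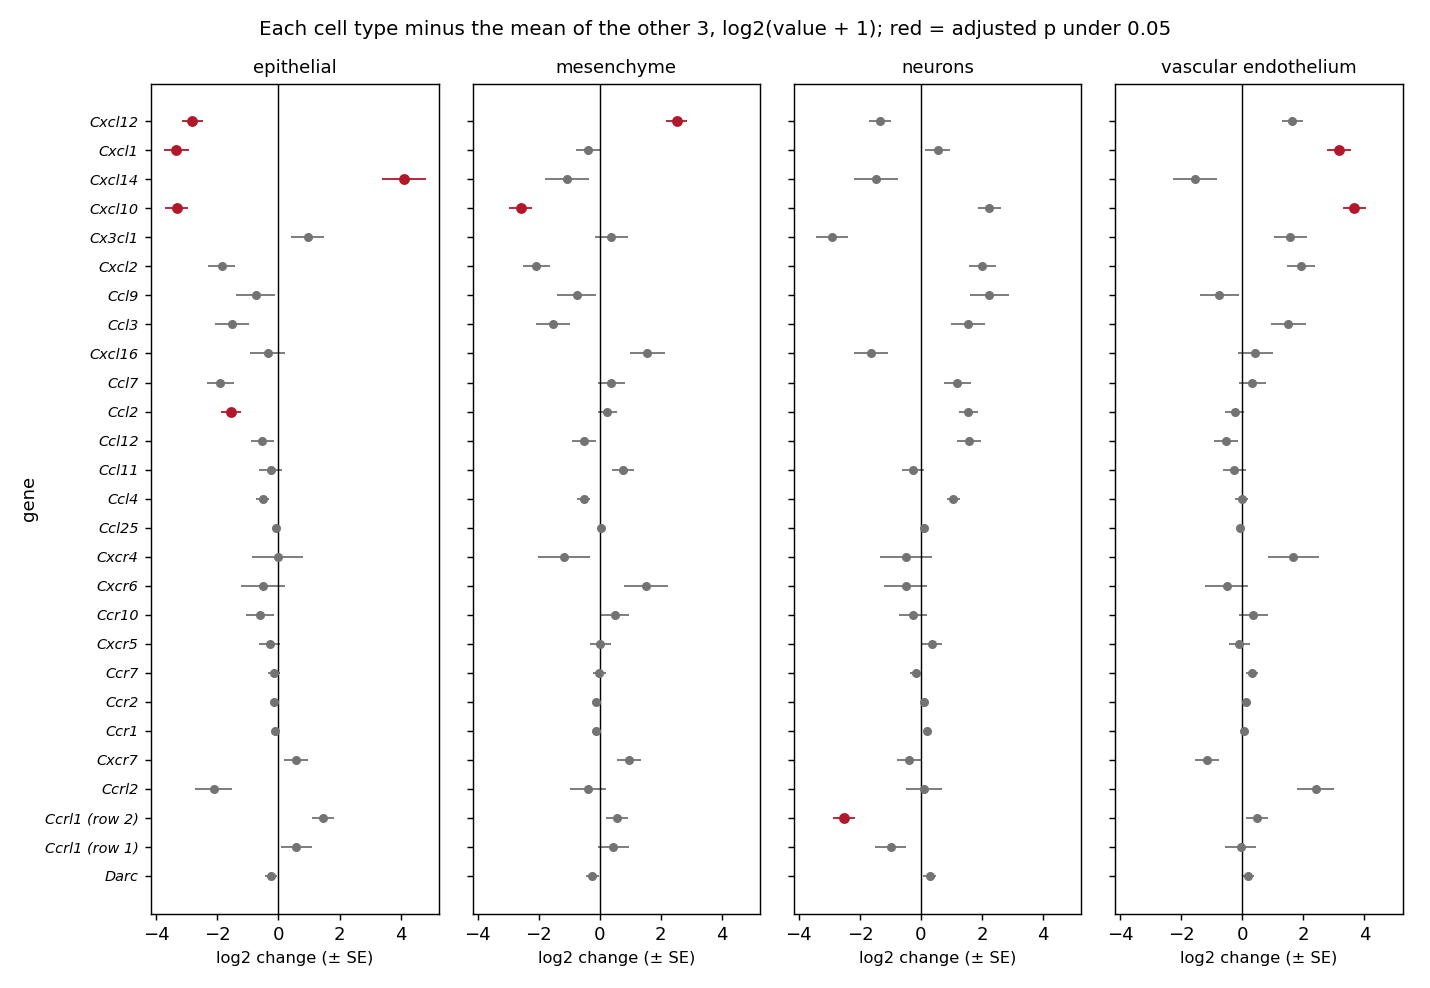
Log2 difference of each chemokine row in each of the 4 cell types against the mean of the other 3, with bars of 1 SE and red points where the limma adjusted p was under 0.05. Row 1 of Ccrl1 is ENSMUSG00000041748 and row 2 is ENSMUSG00000079355. Red points are Cxcl14 above and Cxcl1, Cxcl10, Cxcl12 and Ccl2 below in epithelium, Cxcl12 above and Cxcl10 below in mesenchyme, Ccrl1 below in the neuron-labelled libraries, and Cxcl1 and Cxcl10 above in vascular endothelium.

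Between cochlea and vestibule no row was called across the 4 cell types, and neither was any of the 15275 genes (0% called, with 481 genes higher and 483 lower in the cochlea at an unadjusted p under 0.05). At an unadjusted p under 0.05 the model gave 4 rows higher in the vestibule (Ccl2, Ccl7, Ccrl1 and Cxcl1, each with a limma adjusted p of 0.628) and 0 higher in the cochlea. The median log2 difference of cochlea minus vestibule was -0.20 over the members and 0.02 over all genes. Within a cell type each organ has 1 library and no replicate check, so ratios are given with no test. In mesenchyme, 19 of 27 rows had the higher value in the vestibular library, 2 in the cochlear one, and 6 were at the floor in both. In the neuron-labelled libraries the split was 17, 7 and 3, in vascular endothelium 10, 12 and 5, and in epithelium 7, 5 and 15. Over all 15275 genes it was 6585, 7005 and 1670 in mesenchyme and 6642, 7165 and 1456 in the neuron-labelled libraries. It was 6787, 7129 and 1353 in vascular endothelium and 5790, 7827 and 1643 in epithelium.

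A ratio of at least 4 was reached by few rows. In epithelium this was Cxcl14 (9.99 times higher in the vestibule, as were at least 4-fold 1.94% of all genes). In mesenchyme it was Cxcr4 (7.16), Ccrl1 (4.25) and Cxcr6 (listed at the floor in the cochlear library), against 0.897% of all genes. In the neuron-labelled libraries it was Ccl3 (5.79) and Ccl9 (6.72), against 2.95%. The part of the higher signal of other populations in the vestibular neuron-labelled and vascular libraries, given above, was not tested. In vascular endothelium no row was at least 4-fold higher in the vestibule, against 5.2% of all genes, and 1 was in the cochlea, the Ccrl1 row ENSMUSG00000041748 (86.5 and 20), against 4.07%. No row was at least 4-fold higher in the cochlea in the other cell types, where 0.799% of all genes in epithelium, 0.831% in mesenchyme and 1.83% in the neuron-labelled libraries were.

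**Figure D4:**
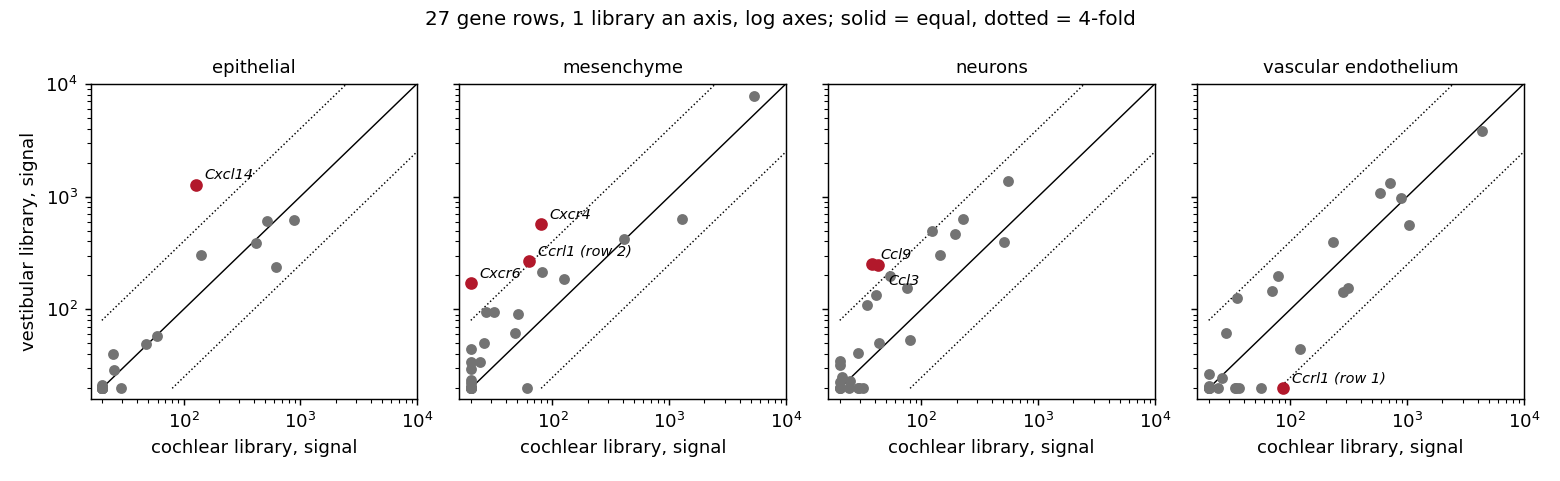
Signal in the vestibular library against signal in the cochlear library of the same cell type for each chemokine row, both axes on a log scale, with a solid line for equality and dotted lines for 4-fold differences, 1 panel per cell type, and rows past 4-fold in red. Cxcr4 in mesenchyme (79 and 565.3) and Cxcl14 in epithelium (127 and 1269) lie beyond the 4-fold line on the vestibular side.

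Genes that work with chemokines were read as lists. Over all genes 5.96% were called higher and 5.14% lower in vascular endothelium, and 7.27% and 6.68% in epithelium. The shares were 1.82% and 1.51% in mesenchyme and 2.3% and 1.07% in the neuron-labelled libraries. At an unadjusted p under 0.05, 2137 of all 15275 genes were higher and 2450 lower in vascular endothelium, and 2193 and 2343 in epithelium. These counts were 1527 and 1669 in mesenchyme and 1547 and 1588 in the neuron-labelled libraries. Of 49 genes of chemokine signalling (G protein subunits, kinases, adaptors and regulators of G protein signalling), 13 were called higher and none lower in vascular endothelium (limma; 21 and 4 at an unadjusted p under 0.05), and 1 higher and 12 lower in epithelium. The list's median log2 difference was 0.55 in vascular endothelium and -0.53 in epithelium, beside -0.03 and -0.07 over all genes. In vascular endothelium the 4 called genes of largest change were the kinases Jak3 (4.70) and Lyn (4.19), the phospholipase gene Plcb1 (3.90) and the G protein subunit Gng11 (3.86). Jak3 was at 2724.5 and 795.4 there and at most 122.1 elsewhere. In epithelium they were the G protein subunits Gnb4 (-5.24) and Gng11 (-4.76), Rgs5 (-3.98) and, in the other direction, the kinase Ptk2b (3.89). In the neuron-labelled libraries 2 were higher and 1 lower, and Rgs5 led with 5.26. Rgs5 is also a pericyte marker and was at 147259.9 in the vestibular and 6597.8 in the cochlear neuron-labelled library. Mesenchyme had 2 higher and 3 lower.

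Of 17 chemokine genes and partners that the symbol rule does not take, 3 were called higher and 1 lower in vascular endothelium. Ccbp2, the atypical receptor Ackr2 that degrades inflammatory CC ligands, was at 749.4 and 566.4 in cochlear and vestibular vascular endothelium, at 24.9 in the vestibular neuron-labelled library and at the floor in the other 5. It was higher by 4.91 (SE 0.20, limma adjusted p = 0.00464). Gpr182, an endothelial receptor that binds several chemokines without typical signalling, was at 487.1 and 411.1 there and at most 92.3 elsewhere, and was higher by 3.38 (SE 0.36, adjusted p = 0.0175). Cmtm8, a membrane protein of a chemokine-like family, was higher by 3.44 and Ccl27a, a skin homing ligand, lower (-1.36). In epithelium 2 of the 17 were higher and 3 lower, and in mesenchyme and in the neuron-labelled libraries none was higher and 2 were lower in each (limma; at an unadjusted p under 0.05, 0 higher and 5 lower in mesenchyme and 2 and 3 in the neuron-labelled libraries).

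Of 30 genes that induce chemokine genes (cytokines, their receptors, NF-kappaB and interferon factors), 9 were called higher and none lower in vascular endothelium (limma; 21 and 0 at an unadjusted p under 0.05), where Tnfrsf1b (4.19), a tumour necrosis factor receptor gene, and the interferon and viral response genes Irf7 (2.76), Tlr3 (1.81) and Irf8 (1.77) led. In epithelium 1 was higher and 6 lower, and Csf1, the macrophage growth factor, had the largest difference (-3.92). Mesenchyme had 2 lower, and the neuron-labelled libraries had none in either direction (limma; 3 higher and 2 lower at an unadjusted p under 0.05). The list's median was 1.31 in vascular endothelium and -0.94 in epithelium. Of 21 genes that build or carry heparan sulfate, the sugar chain on which chemokines are held at the cell surface, 5 were called lower and none higher in vascular endothelium (limma; 11 and 0 at an unadjusted p under 0.05), led by the core protein genes Gpc1 (-3.88), Gpc3 (-3.61), Sdc4 (-2.62) and Gpc4 (-2.14). In epithelium 4 were higher, with Gpc1 at 3.49, and 1 lower. In mesenchyme and the neuron-labelled libraries none was called (limma; 6 and 3 higher, 1 and 4 lower at an unadjusted p under 0.05). No gene of these 4 lists was called between the organs. At an unadjusted p under 0.05 there were 2 higher and 6 lower in the cochlea in the signalling list, 0 and 1 among the partners, 0 and 3 among the inducers and 1 and 1 in the heparan sulfate list. The vascular counts went down to 0 with some library left out (0 to 8 signalling genes higher, 0 to 8 inducers higher, 0 to 4 partners higher and 0 to 4 heparan sulfate genes lower). In epithelium the counts ranged from 3 to 10 signalling genes lower, 0 to 12 inducers lower and 0 to 5 heparan sulfate genes higher.

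Most calls rested on all libraries being present. Of the 10 called changes of chemokine genes, those of Cxcl12 and Cxcl10 in mesenchyme, Ccl2 in epithelium and Ccrl1 in the neuron-labelled libraries were lost whichever of the 8 libraries was left out (limma adjusted p from 0.0688 to 0.317). The lower signals of Cxcl1, Cxcl10 and Cxcl12 in epithelium stayed called without the cochlear neuron-labelled or either vascular library and were lost without any of the other 5 (adjusted p up to 0.144). The higher signal of Cxcl1 in vascular endothelium stayed called only without the vestibular neuron-labelled library (adjusted p up to 0.132 otherwise). That of Cxcl10 was lost without either mesenchyme, the cochlear neuron-labelled or either vascular library (up to 0.107). Cxcl14 stayed called without either epithelial library, at 5.59 without the cochlear and 2.61 without the vestibular one, and was lost without any of the other 6 (up to 0.104). With an epithelial library left out, the remaining one is a lone sample assumed to vary like the other groups, so these 2 values are no replicate check. None of the 10 turned its direction. Of the list genes named above, Rgs5 in the neuron-labelled libraries and Tlr3 and Gpc4 in vascular endothelium were lost whichever library was left out. Jak3, Irf7 and Irf8 in vascular endothelium were lost in 7 of the 8 fits. Gnb4 and Gng11 in epithelium stayed called in each, with the same limit for a lone sample.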

How the data were processed

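RNA was measured in 8 libraries of sorted cells, 1 for each of 4 cell types in 2 organs. The authors deposited 1 table of a normalised expression signal for 15275 genes. TopHat 1.0.0 and the GRCm38 build are listed in the processing notes of the submitters. The counting, the strand setting and the normalisation are not given in the sources used here. The table has the same sorted values in every library and a floor of 20, so depth and counting error are unknown. Of its symbols, 20 that a spreadsheet had turned into dates were restored from their gene identifiers, none of them of a chemokine gene. All 15275 genes were kept and fitted as log2(signal + 1) in limma 3.58.1 (R 4.3.3), with cell type and organ as terms and a mean-variance trend. The contrasts set a cell type against the average of the remaining 3, and p-values were adjusted by Benjamini-Hochberg over all genes. The fit was tested on simulated data.

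The members and gene lists were chosen with earlier results of these data known. A member was given in all libraries if it was called or reached 1000. Its partners could be given beside it, other members by their highest value and of each list the 4 called genes of largest change in a comparison. Members outside this rule whose values are given were chosen after their values were seen. Alternatives were a pseudocount of 10, the floor subtracted, only genes of mean signal of at least 100, median-of-ratios scaling, no trend, no term for the other factor, and each library left out. Positions and overlaps came from GENCODE M21, which held 26 of the 27 rows, and promoters from RefSeq (GRCm38.p6). Figures were drawn with matplotlib 3.10.9.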

Additional observations from a re-analysis of the deposited data

Results flagged for a closer look

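The organ difference of 2 chemokine genes ran in opposite directions in different cell types, by at least 2 times with the higher value at 100 or more. Cxcr4 was higher in the vestibular library by 7.16 times in mesenchyme and 2.36 times in the neuron-labelled libraries, but higher in the cochlear library by 2.59 times in epithelium. Cxcl16 was higher in the vestibular library by 2.6 times in mesenchyme and in the cochlear library by 2.68 times in vascular endothelium. With 1 library for each cell type and organ these differences were not tested.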

How the results depend on the processing

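No paired analysis was possible because the labels give no replicate numbers and each cell type and organ has 1 library; the organ term of the model compares cell types within an organ. Of 80 values of the 10 called changes with 1 library left out, 65 were no longer called, and of 59 under the other alternatives 6 were not; 0 had the opposite sign. With 1 library left out, the counts of members ranged from 0 to 1 higher and 0 to 5 lower in epithelium, 0 to 1 higher and 0 to 0 lower in mesenchyme and in the neuron-labelled libraries, 0 to 2 higher and 0 to 1 lower in vascular endothelium and 0 to 0 between organs. With the floor subtracted, members lower in epithelium went from 4 to 7, those lower in mesenchyme from 1 to 0 and those higher in the neuron-labelled libraries from 0 to 1. Members at least 4-fold apart between organs then numbered 10 in vestibular mesenchyme (3 in the main analysis), 8 in vestibular neuron-labelled, 3 in vestibular vascular endothelium, and in the cochlea 1 in epithelium, 1 in mesenchyme, 4 in neuron-labelled and 6 in vascular endothelium. With genes of mean signal of at least 100, the counts were 1 higher and 2 lower in the neuron-labelled libraries and 4 higher in vascular endothelium, 2, 1 and 4 members were highest in mesenchyme, neuron-labelled and vascular libraries, and 0 were 4-fold apart in vestibular neuron-labelled and cochlear vascular libraries. Median-of-ratios scaling gave 1 higher and 2 lower in the neuron-labelled libraries, 5 higher in vascular endothelium and 0 4-fold apart in cochlear vascular endothelium. A pseudocount of 10 left 0 lower in the neuron-labelled libraries, no trend 0 higher in mesenchyme, and no term for the other factor 0 lower in mesenchyme and 5 higher in vascular endothelium. The cause was not tested.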
